A study of Mus musculus with 16 samples.

Results

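The genes described here are 8 genes of ependymal cells and motile cilia, Foxj1, Dynlrb2, Rsph1, Spag16, Ccdc153, Tmem212, Ankrd45 and Prom1, out of 18193 genes that at least 1 probe set of the array names alone. They were chosen by name, with differences on the arrays of AβPP antisense mice already known, and every probe set whose only gene symbol was one of the 8 was taken, which gave 11 probe sets. All arrays carried hippocampal RNA of 12-month-old male mice, 1 mouse per array and 4 mice per group. The study compared 4 groups. Control mice came from a 50% backcross of SAMP8 with CD-1, have no memory deficit at that age and received nothing. SAMP8 mice, a senescence-accelerated strain with a memory deficit at 12 months, were untreated, or received either a random antisense oligonucleotide (Random antisense) or an antisense oligonucleotide against AβPP, the amyloid-beta protein precursor (AβPP antisense). Both oligonucleotides were given intravenously, and the dose and schedule are not given in the sources used here. Control and SAMP8 mice differ in their whole genetic background, and the CD-1 share of each Control mouse is not defined further. For mouse 1 of the Random antisense group, the treatment field says that it was not treated, whereas its title, source and description place it in the Random antisense group, where it was kept.

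Ependymal cells line the brain ventricles and carry tufts of motile cilia that move cerebrospinal fluid. The core of a motile cilium is a ring of doublet microtubules around a central pair. Dynein arms on the doublets produce the beat, radial spokes and the nexin links coordinate it, and intraflagellar transport carries the parts in and out. The forkhead factor FOXJ1 and factors of the RFX family, which bind a DNA element called the X-box, switch on the genes for these parts. The hippocampus borders a ventricle, so a dissected hippocampus can hold a strip of ependyma and pieces of the adjoining choroid plexus.

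The stretches before the start sites are shown for the 5 tested members whose sequence could be matched, because these genes varied together or, for Prom1, apart from the others. They are the 250 bases before the RefSeq start site on build GRCm38.p6, read in the direction of the gene. Capitals mark matches to the motifs searched.
Dynlrb2, chr8:116504765-116505014, plus strand: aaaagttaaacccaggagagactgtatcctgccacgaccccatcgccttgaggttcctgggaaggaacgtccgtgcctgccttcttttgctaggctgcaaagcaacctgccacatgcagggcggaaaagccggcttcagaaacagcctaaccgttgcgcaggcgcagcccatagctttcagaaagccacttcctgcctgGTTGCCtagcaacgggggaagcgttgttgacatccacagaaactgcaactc
Ccdc153, chr9:44240427-44240676, plus strand: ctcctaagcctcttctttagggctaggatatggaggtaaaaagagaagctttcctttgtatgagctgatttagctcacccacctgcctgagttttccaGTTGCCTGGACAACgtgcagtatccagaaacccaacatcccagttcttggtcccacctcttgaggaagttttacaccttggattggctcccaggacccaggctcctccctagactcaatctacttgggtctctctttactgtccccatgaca
Tmem212, chr3:27896369-27896618, minus strand: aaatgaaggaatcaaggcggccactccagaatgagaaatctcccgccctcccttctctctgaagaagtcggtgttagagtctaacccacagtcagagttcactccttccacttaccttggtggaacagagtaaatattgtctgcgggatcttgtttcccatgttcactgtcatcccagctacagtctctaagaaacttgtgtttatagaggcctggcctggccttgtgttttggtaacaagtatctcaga
Ankrd45, chr1:161142447-161142696, plus strand: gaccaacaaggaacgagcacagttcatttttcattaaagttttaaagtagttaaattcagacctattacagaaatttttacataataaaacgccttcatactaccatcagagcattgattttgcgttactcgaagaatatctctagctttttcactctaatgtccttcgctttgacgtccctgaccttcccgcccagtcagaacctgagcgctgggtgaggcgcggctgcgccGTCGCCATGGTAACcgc
Prom1, chr5:44101737-44101986, minus strand: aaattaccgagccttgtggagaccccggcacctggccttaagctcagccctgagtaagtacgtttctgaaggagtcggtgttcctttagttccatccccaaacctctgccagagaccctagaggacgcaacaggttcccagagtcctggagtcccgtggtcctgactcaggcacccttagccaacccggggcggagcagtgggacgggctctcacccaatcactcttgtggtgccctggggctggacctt

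Of the 8 members, 6 had 8 entries among the RefSeq promoters, Ankrd45 and Prom1 with 2 each. Motifs were searched on both strands, from 250 bases before to 50 bases after each start, in 32851 promoters of that length. GTTGCC, an arm of the X-box searched on its own, was present in 12.5% of all promoters and in 3 of the 8 entries of the members. In Dynlrb2 it began 51 bases before the start, and in Ccdc153 it began 152 bases before it. Spag16, whose stretch is not printed, held the arm once on each strand, at 103 and 111 bases before the start. The X-box was searched in a strict form, with the arms GTTNCC and GGNAAC 2 bases apart, found in 0.451% of all promoters. That form and the forkhead motif TGTTTAC, found in 3.65%, matched 0 of the 8 entries. Apart from the looser form that follows, X-boxes with other arm letters or another distance between the arms were not searched. A looser X-box, GTNNCC followed by AAC 5 bases on, was added after the sequences had been seen and matched 3.9% of all promoters. It matched 4 of the 8 entries, of which the 2 of Ankrd45 overlap and hold the same site, and nothing is read from that count. Ccdc153 carried it as GTTGCCTGGACAAC, overlapping its arm. Ankrd45 carried it as GTCGCCATGGTAAC, 17 bases before the first start and 32 bases before the second. Spag16 carried it as GTTGCCGTAGTAAC, which also overlaps an arm. Tmem212 and Prom1 held none of the 4 motifs in these windows.

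Values are log2 signals on the scale the authors deposited, so a difference of 1 is a doubling. A probe set was tested where it exceeded 4 on at least 4 of the 16 arrays. Under that filter 6 of the 8 members were tested, each by 1 probe set: Dynlrb2, Rsph1, Ccdc153, Tmem212, Ankrd45 and Prom1. Foxj1 exceeded 4 on 3 arrays, and the 4 probe sets of Spag16 on 0 arrays, so these genes have values but no test. In tissue of mixed cells, fewer cells of a type and less RNA per cell cannot be told apart.

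The median correlation to the other arrays was 0.983 to 0.989 in Control, untreated SAMP8 and Random antisense, apart from Control array 4 at 0.922. On AβPP antisense arrays 1 to 4 it was 0.969, 0.958, 0.982 and 0.905. The excess of 3′ over 5′ actin signal was 1.60, 1.60, 1.21 and 3.89 log2 on AβPP antisense arrays 1 to 4. On the arrays of the other 3 groups it lay between 0.84 and 1.36. For Gapdh the same measure was -0.09, 0.02, -0.35 and 1.26 on the AβPP antisense arrays, against -0.41 to -0.30 on the others. Leukocyte markers had a mean level of 12.7 on Control array 4, against 5.97 to 7.30 on the other 15. Markers of hippocampal neurons were present: 11 of the 12 listed were on the array and 11 were tested. Their mean level lay between 7.20 and 8.16 on the arrays of the other 3 groups, and between 5.92 and 8.62 on the AβPP antisense arrays, where arrays 2 and 4 were lowest.

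On the AβPP antisense arrays, 5 of the 6 tested members had a lower mean than in either of the other SAMP8 groups. Ankrd45, an ankyrin repeat protein, had the largest difference, and Prom1 was the 1 member with a higher mean. Because these arrays were in view when the genes were chosen, the differences that involve them are given as descriptions with their standard errors (SE), without a test. The members are taken below in the order of their roles: regulator, motor, spoke and central pair, nexin link, membrane and other genes.

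Foxj1, the regulator of motile ciliogenesis, was near the filter level on all arrays. It read 3.73, 3.82, 4.47 and 3.34 on Control arrays 1 to 4, and 3.66, 3.82, 4.03 and 3.80 in untreated SAMP8. The Random antisense values were 3.87, 4.15, 3.81 and 3.84, and the AβPP antisense values 3.69, 3.66, 3.77 and 3.81. The widest spread was in Control, whose arrays 3 and 4 held the highest and the lowest value of all 16. The mean of the AβPP antisense arrays differed from that of Random antisense by -0.18 log2, and all 4 of its values were below all 4 of theirs, the nearest pair both rounding to 3.81. At levels this close to the filter no fold change was drawn from it.

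Dynlrb2 encodes a roadblock-type light chain of the dynein motor. Its values were 6.82, 6.64, 6.34 and 5.0 on the Control arrays and 6.72, 6.48, 7.02 and 6.82 in untreated SAMP8. In Random antisense they were 5.75, 5.66, 6.41 and 6.66, and in AβPP antisense 5.10, 4.93, 5.76 and 4.89. Control array 4 stood with the AβPP antisense arrays, while the rest of Control lay among the SAMP8 values. The AβPP antisense mean, 5.17 ± 0.41 (SD, n = 4), differed from untreated SAMP8 by -1.59 (SE 0.35), a 3.01-fold lower signal with no overlap between the groups. Against Random antisense, at 6.12 ± 0.49 (SD, n = 4), it differed by -0.95 (SE 0.35), and array 3 of the AβPP antisense group overlapped the Random antisense range. Dynlrb1, the widely expressed paralogue of Dynlrb2, read between 12.04 and 12.68 over the 16 arrays. Its difference between AβPP antisense and Random antisense was -0.13 (SE 0.15, limma adjusted p = 0.760).

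Rsph1 is a protein of the radial spoke head. Control arrays read 7.03, 6.49, 6.65 and 6.38, and untreated SAMP8 arrays 6.48, 6.93, 7.81 and 7.37. The Random antisense values were 6.78, 6.75, 7.02 and 6.62, and the AβPP antisense values 6.67, 6.33, 6.64 and 6.08. SAMP8 arrays 3 and 4 were the highest and AβPP antisense array 4 the lowest, and all groups overlapped. The AβPP antisense mean differed from Random antisense by -0.36 (SE 0.24) and from untreated SAMP8 by -0.72 (SE 0.24).

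Spag16, a protein of the central pair, gave little signal. The medians of its 4 probe sets over the 16 arrays were 2.27, 2.57, 2.31 and 3.12. The brightest read between 2.99 and 3.36, and its AβPP antisense mean differed from that of Random antisense by 0.01 log2. Group ranges overlapped for each of the 4 probe sets in each of the 4 comparisons. Such values are close to the background of the array and carry no information on whether Spag16 RNA changed.

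Ccdc153 encodes a coiled-coil protein of the nexin link. It read 6.46, 5.45, 5.53 and 5.19 in Control, 5.44, 6.02, 6.39 and 5.48 in untreated SAMP8, 5.48, 5.44, 5.09 and 5.20 in Random antisense and 5.33, 4.63, 5.44 and 5.22 in AβPP antisense. Apart from array 2, the AβPP antisense values lay within the Random antisense range. The difference was -0.15 (SE 0.27) against Random antisense and -0.68 (SE 0.27) against untreated SAMP8, with overlap in each case. Without AβPP antisense array 2, the difference from Random antisense became 0.03.

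Tmem212, a transmembrane protein used as an ependymal marker, read 5.52, 4.56, 5.15 and 3.57 on the Control arrays and 4.83, 5.07, 6.51 and 5.03 in untreated SAMP8. The values were 4.81, 4.81, 5.44 and 4.82 in Random antisense and 4.12, 3.71, 4.77 and 3.70 in AβPP antisense. As for Dynlrb2, Control array 4 was the lowest of its group and AβPP antisense array 3 the highest of its own. The AβPP antisense values lay below all Random antisense values, with array 3 closest at 4.77 against 4.81, and below all untreated SAMP8 values. The differences were -0.89 against Random antisense and -1.28 against untreated SAMP8 (SE 0.42 for each). Tmem212 exceeded the filter level on 13 of the 16 arrays, so 3 of its low values are near background.

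Ankrd45 had the widest gap. It read 5.64, 5.48, 5.44 and 5.05 in Control and 5.77, 5.36, 6.23 and 6.17 in untreated SAMP8. The Random antisense values were 5.84, 5.98, 5.66 and 5.58, and the AβPP antisense values 4.10, 4.06, 5.17 and 3.28. Array 3 again stood above the other AβPP antisense arrays, by more than 1 log2, and above Control array 4. All 4 AβPP antisense values lay below those of the other SAMP8 groups. Their mean, 4.15 ± 0.78 (SD, n = 4), differed from the 5.76 ± 0.18 (SD, n = 4) of Random antisense by -1.61 (SE 0.31), a 3.06-fold lower signal, and from untreated SAMP8 by -1.73 (SE 0.31). Without AβPP antisense array 4, whose actin signal was the most uneven, the difference from Random antisense was -1.32.

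Prom1 encodes prominin, a membrane glycoprotein of microvilli and other protrusions that is also found on neural stem cells and many epithelia. It read 8.03, 7.58, 8.28 and 7.81 in Control and 7.67, 7.64, 7.87 and 7.68 in untreated SAMP8. The Random antisense values were 7.69, 7.63, 7.66 and 7.37, and the AβPP antisense values 8.37, 8.54, 8.07 and 8.46. Here array 3 was the lowest of the AβPP antisense group, as it was the highest for Dynlrb2, Tmem212, Ccdc153 and Ankrd45. The AβPP antisense mean, 8.36 ± 0.20 (SD, n = 4), was 0.77 above the 7.59 ± 0.15 (SD, n = 4) of Random antisense (SE 0.15), a 1.71-fold higher signal, and 0.65 above untreated SAMP8 (SE 0.15). No value overlapped with either SAMP8 group, while Control array 3, at 8.28, lay inside the AβPP antisense range.

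**Figure D1:**
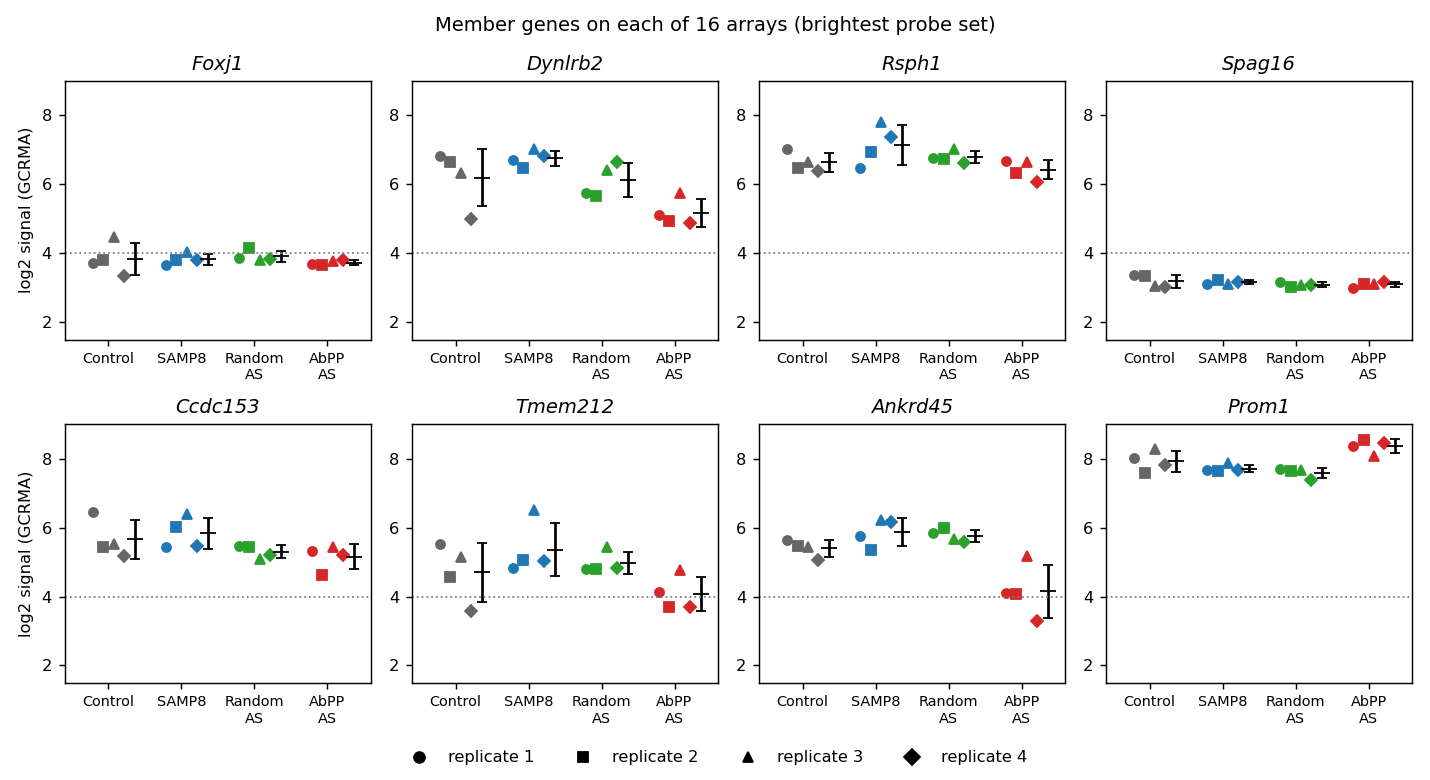
Log2 signal (GCRMA) of the brightest probe set of each of the 8 members on the 16 arrays, by group. Symbols stand for replicates 1 to 4, black bars for the group mean ± SD (n = 4), and the dotted line for the filter level of 4. The AβPP antisense (AbPP AS) group has the lowest mean for Ankrd45, at 4.15, and the highest for Prom1, at 8.36, with 1 of its arrays inside the Control range in each case, while Foxj1 and Spag16 stay near or below the dotted line.

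Over the 6 tested members, the groups did not overlap for 2 lower genes, Tmem212 and Ankrd45, and for 1 higher gene, Prom1, between AβPP antisense and Random antisense. Of all 11465 genes tested in that comparison, 2.26% were lower and 4.69% higher without overlap, and 0.0262% passed an adjusted p of 0.05. Against untreated SAMP8, Dynlrb2, Tmem212 and Ankrd45 were lower and Prom1 higher without overlap, beside 2.88% and 4.05% of all genes, of which 0.0959% passed the adjusted p. As the members were chosen with these values known, nothing is read from the counts. The median difference of the tested members was -0.63 against Random antisense and -1.0 against untreated SAMP8, beside 0.04 and 0.03 over all genes. The 2 comparisons share the AβPP antisense arrays.

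The other comparisons use no AβPP antisense array. The first, untreated SAMP8 against Control, sets the memory-impaired strain against its related strain without deficit. The mean of untreated SAMP8 was above Control for 5 of the 6 tested members, by 0.56 for Dynlrb2 (SE 0.35), 0.51 for Rsph1 (SE 0.24), 0.17 for Ccdc153 (SE 0.27), 0.66 for Tmem212 (SE 0.42) and 0.48 for Ankrd45 (SE 0.31). Prom1 differed by -0.21 (SE 0.15). None passed the test: limma's adjusted p was 0.999 for each of the 6, 0 of 6 had an unadjusted p under 0.05, and all 6 overlapped. Of all genes tested, 26 passed, or 0.227%, and beside so small a share a count of 0 among 6 says little about the members. Genes without overlap made up 2.99% of all genes on the higher side and 1.53% on the lower side. The median difference was 0.49 for the members and 0.04 for all genes. Without Control array 4, which stands apart as a whole, the difference of Dynlrb2 was 0.16, that of Tmem212 0.28 and that of Ccdc153 0.02, while Rsph1 gave 0.43, Ankrd45 0.36 and Prom1 -0.25. SAMP8 array 3 was the highest of its group for all 6. Without it the differences were 0.47 for Dynlrb2, 0.28 for Tmem212, -0.01 for Ccdc153, 0.29 for Rsph1, 0.36 for Ankrd45 and -0.26 for Prom1.

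The second of them, Random antisense against untreated SAMP8, sets the injected random oligonucleotide against no treatment. All 6 tested members had a lower mean in Random antisense, with differences of -0.64 for Dynlrb2 (SE 0.35), -0.53 for Ccdc153 (SE 0.27), -0.39 for Tmem212 (SE 0.42), -0.35 for Rsph1 (SE 0.24), -0.13 for Prom1 (SE 0.15) and -0.12 for Ankrd45 (SE 0.31). None was past the threshold in limma, with an adjusted p of 1.00 for each, 0 of 6 with an unadjusted p under 0.05, and overlap for all 6, beside 4.21% of all genes higher and 4.86% lower without overlap. In that comparison 0 of all genes passed, a share of 0%, with 119 genes at an unadjusted p under 0.05. The median was -0.37 for the members and -0.01 for all genes. Without SAMP8 array 3 the difference of Tmem212 was -0.01 and that of Ankrd45 -0.003, so for these genes the lower mean rested on that array. The others were then -0.55 for Dynlrb2, -0.34 for Ccdc153, -0.13 for Rsph1 and -0.07 for Prom1. Markers of thalamus, a neighbouring region, also had lower means here in 12 of 12 tested genes, with a median of -0.53, and their part in the member differences was not tested.

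**Figure D2:**
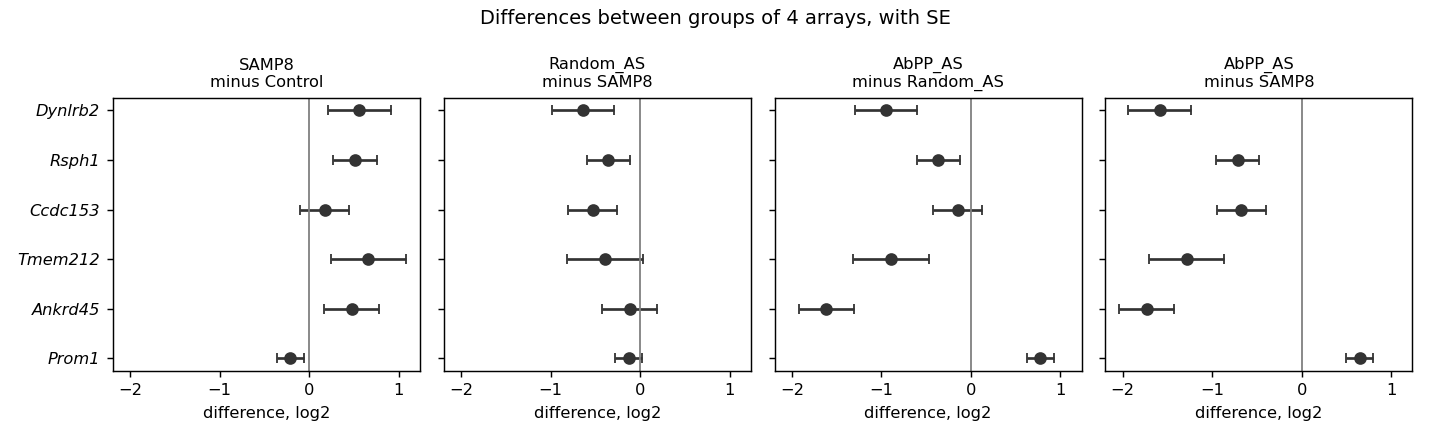
Difference of group means in log2 for the 6 tested members in the 4 comparisons, each with its standard error from the fit over 16 arrays, 4 per group. Ankrd45 lies at -1.61 and Prom1 at 0.77 for AβPP antisense (AbPP_AS) minus Random antisense (Random_AS). The comparisons without AβPP antisense arrays range from -0.64 to 0.66.

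Ordered by group mean, Dynlrb2 ran from untreated SAMP8 at 6.76 through Control at 6.20 and Random antisense at 6.12 to AβPP antisense at 5.17. Tmem212, with 5.36, 4.97, 4.70 and 4.07, and Ankrd45, with 5.88, 5.76, 5.41 and 4.15, ran from untreated SAMP8 through Random antisense and Control to AβPP antisense. Rsph1 took the same order, at 7.15, 6.79, 6.64 and 6.43, and Ccdc153 ran from untreated SAMP8 at 5.83 through Control at 5.66 and Random antisense at 5.30 to AβPP antisense at 5.16. Prom1 was the exception, from AβPP antisense at 8.36 through Control at 7.92 and untreated SAMP8 at 7.71 to Random antisense at 7.59. In each of these orders, neighbouring groups overlapped in their values, also Control and AβPP antisense.

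Apart from Prom1, the tested members varied together from array to array. Their 10 pairs had Pearson correlations of 0.49 to 0.87 over the 16 arrays, which share 4 group means, and of 0.31 to 0.80 after each group's mean had been removed. The closest pairs were Tmem212 with Rsph1, at 0.87 and 0.80 after removal, and Tmem212 with Dynlrb2, at 0.84 and 0.73. Tmem212 with Ccdc153 gave 0.74 and 0.72. The 5 pairs with Prom1 had correlations of -0.76 to -0.20, and of -0.18 to 0.26 once the group means were removed. These correlations are descriptions, and no p is attached. Which arrays shared a hybridisation or scan batch is unknown, and the part of batch in the correlations was not tested.

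**Figure D3:**
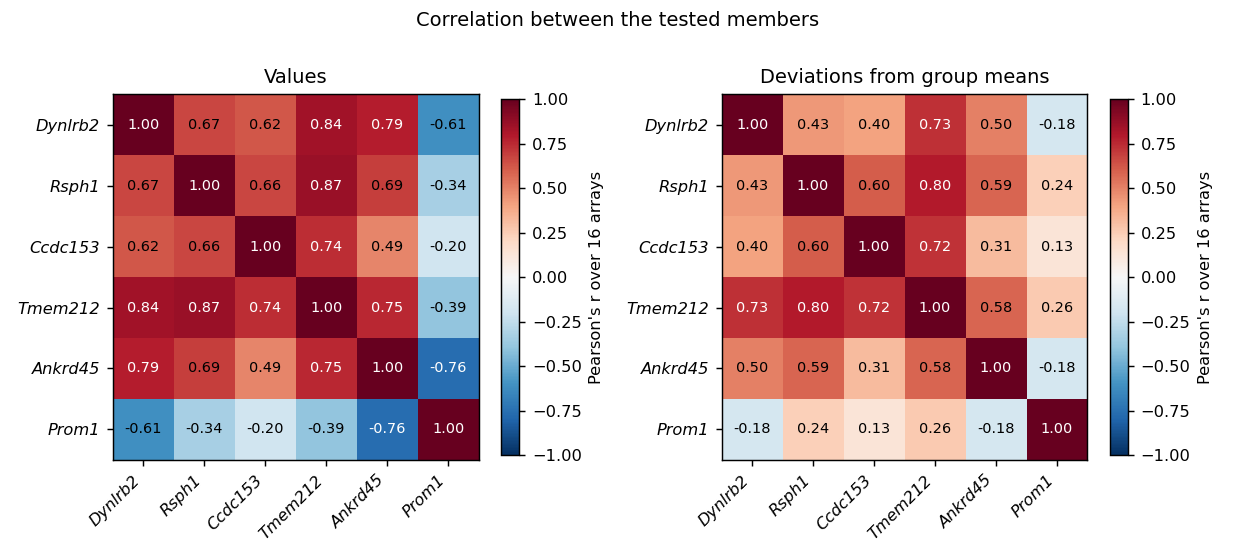
Pearson correlations between the 6 tested members over 16 arrays, of the values on the left and of the deviations from the group means on the right. The 5 genes other than Prom1 are positively correlated in both panels, from 0.31 upwards, whereas Prom1 is negative on the left and between -0.18 and 0.26 on the right.

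By the median of their correlations with the 6 tested members over the 16 arrays, the 10 genes of most similar pattern were Gnb5 and Enkur at 0.77, Atp6v1h at 0.77, Commd6 and Ift46 at 0.75, Snrnp27, Cript and Dnajb4 at 0.74, and Trim37 and Rnf167 at 0.73. Of these, 2 are listed cilia genes: Enkur, a protein inside the doublet microtubules, ranked 2 and Ift46, of intraflagellar transport, ranked 5. Dync2li1 ranked 14, Mns1 20 and 1700007K13Rik, now named Pierce1, 28. The first choroid plexus gene, Kl, ranked 48. With group means removed, the median for Enkur was 0.69 and that for Gnb5 0.63.

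The other genes of cilia were taken from 5 lists. These hold 163 genes besides the members, of which 145 were on the array and 81 tested, and 64 were below the filter, among them Ccno, Trp73, Deup1, Dnah5, Hydin, Spag17, Rsph4a and Ccdc40. Between AβPP antisense and Random antisense, 0 of the 81 passed limma's adjusted p, 5 had an unadjusted p under 0.05, 52 had a positive and 29 a negative difference, and the median was 0.07. That is 6.17% at an unadjusted p under 0.05 and 64.2% positive, beside 8.84% and 56.8% of all genes tested. Against untreated SAMP8, 0 passed, 12 had an unadjusted p under 0.05, 41 were positive and 40 negative, and the median was 0.02, with 14.8% at an unadjusted p under 0.05 beside 1146 of the 11465 genes tested, and 50.6% positive beside 55.2% of all genes. Untreated SAMP8 against Control gave 0 passing, 7 at an unadjusted p under 0.05, 65 positive and 16 negative differences and a median of 0.15. That is 8.64% at an unadjusted p under 0.05 and 80.2% positive, beside 3.77% and 60.2% of all genes. Control array 4, which stands apart as a whole, had a mean level of 6.93 over the 81 genes, against 7.07 to 7.21 on Control arrays 1 to 3. The shares without that array are not given here. Random antisense against untreated SAMP8 gave 0 passing, 1 at an unadjusted p under 0.05, 26 positive and 55 negative differences and a median of -0.06, with 1.23% at an unadjusted p under 0.05 and 32.1% positive beside 1.04% and 46.6% of all genes. The last 2 comparisons share the untreated SAMP8 arrays, and over all genes their medians were 0.04 and -0.01.

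By role, the regulators of multiciliation came first, with 6 tested genes, 5 positive and 1 negative between AβPP antisense and Random antisense, and a median of 0.17. Myb, at 0.37 (SE 1.02), and Rfx4, at 0.19 (SE 0.18), had the largest differences, and neither passed. For the dynein arms and their assembly factors, 9 of 11 were positive with a median of 0.17. Dnaic1, an intermediate chain, differed by 0.43 (SE 0.24, limma adjusted p = 0.487), and Wdr78, another dynein intermediate chain, by -0.37 (SE 0.15, limma adjusted p = 0.359) with no overlap. For the radial spokes and central pair, to which Rsph1 and Spag16 belong, 5 of 7 were positive with a median of 0.11. Rsph9, a partner of Rsph1 in the spoke head, differed by 0.44 (SE 0.22, limma adjusted p = 0.441), in the direction opposite to the -0.36 of Rsph1. Spag6, of the central pair, differed by 0.61 (SE 0.38) and Ak7 by -0.35 (SE 0.23), with limma adjusted p values of 0.537 and 0.572.

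The nexin links and doublet microtubules, the group of Ccdc153, had 8 of 16 genes negative and a median of -0.06 against Random antisense. Against untreated SAMP8, 12 of 16 were negative, with a median of -0.30. The largest differences were those of Tcte1 at -1.03 (SE 0.76), Mns1 at -0.73 (SE 0.35), 1700007K13Rik at -0.70 (SE 0.29) and Enkur at -0.52 (SE 0.21), and limma's adjusted p lay between 0.348 and 0.612. Enkur read 5.0, 4.98, 5.15 and 5.47 in Random antisense and 4.66, 4.54, 4.98 and 4.35 in AβPP antisense, where array 3 came closest to the Random antisense values. 1700007K13Rik, a protein inside the doublet microtubules, read 5.15, 4.99, 5.53 and 4.90 in untreated SAMP8 and 3.66, 3.99, 4.26 and 3.57 in AβPP antisense. Those groups did not overlap. The difference of -1.28 (SE 0.29) had the lowest adjusted p of the 81 genes in that comparison, 0.0807. Without AβPP antisense array 3 it was -1.40 with an adjusted p of 0.019, and with the replicate number as a block -1.28 with 0.0388. Mns1 also passed without that array, at -1.42 with an adjusted p of 0.0354, beside 227 genes called in all.

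Intraflagellar transport and the BBSome serve primary cilia as well as motile ones, and all 41 of their genes on the array were tested. Between AβPP antisense and Random antisense 25 were positive and 16 negative, with a median of 0.03. Ttc21b, of the retrograde transport complex, read 6.42, 6.87, 6.93 and 6.85 in Random antisense and 7.36, 7.09, 7.22 and 7.56 in AβPP antisense, a difference of 0.54 (SE 0.14, limma adjusted p = 0.148) with no overlap. Hspb11 differed by 0.49 (SE 0.13, limma adjusted p = 0.195), also without overlap. Without AβPP antisense array 3, Hspb11 passed, at 0.55 with an adjusted p of 0.0436. Kif3a, a subunit of the anterograde motor, differed by -0.41 (SE 0.29, limma adjusted p = 0.602).

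**Figure D4:**
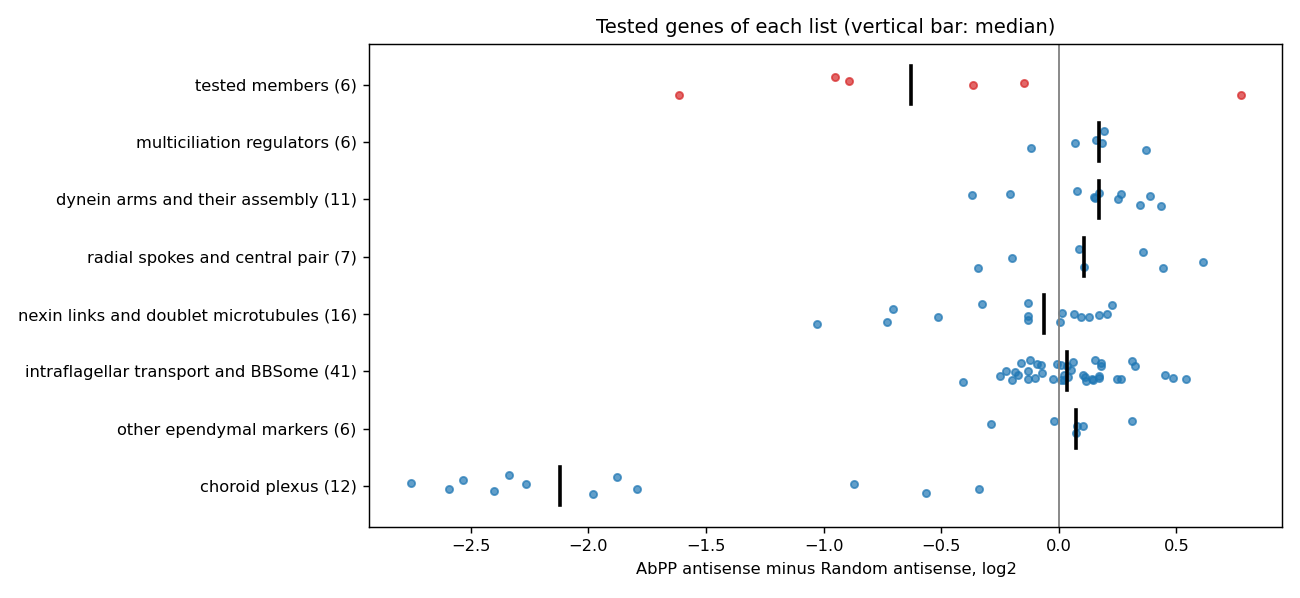
Difference of AβPP antisense and Random antisense means in log2 for each tested gene of 8 lists, with the number of genes in parentheses and a black bar at the median. The medians of the 5 cilia lists and of the other ependymal markers lie between -0.06 and 0.17, that of the 6 tested members at -0.63 and that of the choroid plexus genes at -2.12.

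Further markers of ependymal cells were mostly too dim. Of 28 listed, 23 were on the array and 6 tested, 4 with a positive and 2 with a negative difference between AβPP antisense and Random antisense and a median of 0.07. Fam183b, a cilia gene, differed by -0.29 (SE 0.18) and Cd24a, a surface protein shared with neuroblasts, by 0.31 (SE 0.45), and neither passed limma's test, with adjusted p values of 0.545 and 0.821. The label of ependymal cells therefore rests on few markers above the filter, and Foxj1 itself was not among them.

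Genes of the choroid plexus, the epithelium that secretes cerebrospinal fluid, also had lower means on the AβPP antisense arrays. Of 20 listed choroid plexus genes 17 were on the array and 12 tested, and all 12 had a lower mean in AβPP antisense than in Random antisense, with a median of -2.12, and than in untreated SAMP8, with a median of -2.48. In untreated SAMP8 against Control all 12 had a higher mean, with a median of 0.58, and in Random antisense against untreated SAMP8 10 of 12 had a lower one, with a median of -0.37. The 5 genes below the filter were Aqp1, Slc4a5, Trpv4, Wfikkn2 and Tmem72. Summed over the 17 genes on the linear scale, the signal lay between 42114 and 52393 in Control, 50176 and 63674 in untreated SAMP8, 40393 and 56669 in Random antisense, and 2428 and 40542 in AβPP antisense. Transthyretin, Ttr, the main secreted protein of that epithelium, made up 75.3% to 98.3% of the sum. Over the other 16 genes it lay between 962 and 1622 in Control, 1278 and 2780 in untreated SAMP8, 861 and 2107 in Random antisense, and 327 and 694 in AβPP antisense, below all other arrays. Ttr itself differed by -2.34 between AβPP antisense and Random antisense (SE 0.60, limma adjusted p = 0.154), where 0 of the 12 genes passed and 10 had an unadjusted p under 0.05. Against untreated SAMP8, 5 of the 12 passed limma's test, all lower: Clic6, a chloride channel protein (adjusted p = 0.00837), Kcnj13, a potassium channel (0.0279), Calml4 (0.0279), Folr1, a folate receptor (0.0295), and Kl, klotho (0.0427). With only the 8 arrays of that comparison in the fit, 0 of the 12 passed. Clic6 alone passed without the filter or without limma's moderation of the variance, and the other alternatives that kept every single array or dropped 2 gave 4 to 8. With single arrays left out, 1 to 7 of the 12 passed in that comparison. Clic6 alone passed without any 1 of the 4 untreated SAMP8 arrays or without Random antisense array 1 or 3. Against Random antisense, 0 to 6 passed, with 5 without AβPP antisense array 3 and 6 without AβPP antisense array 4.

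Within the groups the match was partial. The mean of the 5 members without Prom1 was 5.06, 4.73, 5.56 and 4.64 on AβPP antisense arrays 1 to 4, and the mean of the 12 choroid plexus genes 5.01, 4.95, 5.19 and 6.41. Array 4 thus held the highest choroid plexus level of that group and the lowest member level. Among the untreated SAMP8 arrays, array 3 was highest for both, at 6.79 for the members and 8.27 for the choroid plexus genes. Over all 16 arrays the correlation between these means was 0.74, and after removal of the group means it was 0.22. Over the 12 arrays without AβPP antisense it was 0.70, with the differences between those groups left in. Other listed cell types differed in their means too. Blood genes had higher means in AβPP antisense than in Random antisense for 4 of 4 tested genes, with a median of 2.81 and mean levels of 4.59 to 8.46 against 3.43 to 3.68. Meningeal fibroblast genes had lower means for 8 of 9 and thalamus genes for 11 of 12, with medians of -0.59 each, but the arrays were split. Mean levels of the thalamus genes were 7.07, 9.32, 7.26 and 9.86 on AβPP antisense arrays 1 to 4, against 8.54 to 9.30 in Random antisense. Those of the meningeal fibroblast genes were 6.57, 5.34, 7.39 and 5.98, against 6.67 to 6.95. Microglia genes had higher means for 7 of 9 with a median of 0.35, and endothelial genes for 6 of 7 with a median of 0.26. Tanycyte genes had higher means for 5 of 5 with a median of 0.26, and astrocyte genes for 9 of 12 with a median of 0.07. Genes of neural stem cells and neuroblasts, where Prom1 is also found, had higher means for 4 of 7 with a median of 0.01. The part of these cell types, and of the neuron markers and actin and Gapdh signals given above, in the member differences was not tested.

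**Figure D5:**
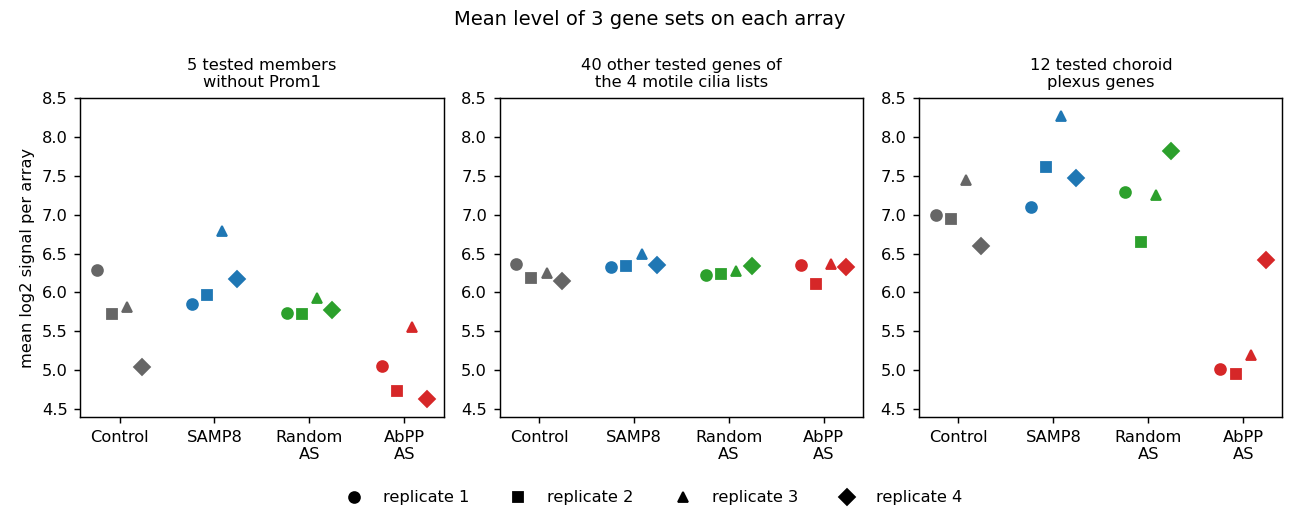
Mean log2 signal on each array of the 5 tested members without Prom1 (left), of the 40 other tested genes of the 4 motile cilia lists (middle) and of the 12 tested choroid plexus genes (right), by group, with a symbol for each replicate. AβPP antisense (AbPP AS) lies at 4.64 to 5.56 on the left and 4.95 to 6.41 on the right, while the middle panel stays between 6.11 and 6.49 on all 16 arrays.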

How the data were processed

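Hippocampal RNA of 16 mice was measured on Affymetrix arrays, 1 mouse per array and 4 mice per group. Per the labels' protocols, biotinylated cRNA was made from 4 µg of total RNA. The deposited values are log2 signals that the authors made with GCRMA, per the submitters' processing notes; no version is stated there. Background correction and normalization were not repeated, and with no read counts the number of arrays limits the precision.

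Of 45101 probe sets, 64 controls were left out, which gave 45037. The filter asked for a level above 4 log2 on 4 or more arrays, which 23905 probe sets met and 21132 did not. Gene symbols came from GEO's platform annotation, in which 34945 probe sets have 1 symbol, 932 several and 9160 none. The tested 1-symbol probe set of highest mean stood for a gene, which gave 11465 genes. Groups were compared in limma 3.58.1 (R 4.3.3; lmFit and eBayes, 4 groups in a one-way layout, 12 residual degrees of freedom), and p-values were adjusted by Benjamini-Hochberg over all tested probe sets and a threshold of 0.05; the procedure was tested on simulated data.

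The members and the gene lists (284 of 318 listed genes were on the array) were chosen with earlier results of these data known. Differences that involve AβPP antisense arrays are therefore given for the members without a p-value. Besides the members, the text names up to 4 tested genes of each cilia and ependymal list with the largest AβPP antisense to Random antisense difference, any gene of those lists called in a comparison (there were 0), the paralogue Dynlrb1, and the 10 genes of most similar pattern. Genes listed as below the filter, markers of other cell types and genes called under an alternative were named after their values had been seen. Alternatives covered the filter, the scaling, the variance model, the probe set per gene, the arrays used, the label of Random antisense mouse 1 and the replicate number as a block. No pairing by replicate number was assumed in the main fit. Over 24 pairs of same-numbered arrays, deviations from group means correlated between -0.27 and 0.24, with 9 pairs over 0.1. Pairs of arrays numbered 3 gave 0.17 to 0.24 among the SAMP8 groups and -0.01 to 0.03 with Control. Promoters came from RefSeq tables on GRCm38.p6. Figures were drawn with Python 3.11.15 and matplotlib 3.10.9.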

Additional observations from a re-analysis of the deposited data

Results flagged for a closer look

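In 4 of 36 groups of 4 arrays examined (the 8 members and Dynlrb1 in each group), 1 array lay further from the rest than Dixon's test allows; chance gives about 1 such group in 20. In untreated SAMP8, array 3 was the highest for Tmem212, at 6.51 against 4.83 to 5.07, and for Prom1, at 7.87 against 7.64 to 7.68. In Random antisense, array 3 was the highest for Tmem212, at 5.44 against 4.81 to 4.82, and array 2 for Foxj1, at 4.15 against 3.81 to 3.87.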

How the results depend on the processing

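Under 28 alternatives, 0 members passed the threshold in untreated SAMP8 against Control or in Random antisense against untreated SAMP8, and the lowest adjusted p was 0.135 (Dynlrb2, Random antisense against untreated SAMP8, with array weights). Among the member differences recomputed, those that changed sign were all of Ccdc153. In untreated SAMP8 against Control there were 2, -0.057 with array weights and -0.010 without SAMP8 array 3, with a range of -0.010 to 0.44 over arrays left out; the cause was not tested. The median of the members between AβPP antisense and Random antisense was -0.27 without the filter, because Foxj1 and Spag16 then enter, -0.36 with a filter level of 6 log2, which leaves Dynlrb2, Rsph1 and Prom1, and -0.78 to -0.51 with an array left out. Against untreated SAMP8 it was -1.20 to -0.70 with an array left out. Of 330 member differences that involve AβPP antisense arrays, 1 changed sign, against Random antisense without AβPP antisense array 2, at 0.03.

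Of the other cilia genes, 0 passed in any comparison. With the replicate number as a block 1 passed in AβPP antisense against untreated SAMP8 (1700007K13Rik), and the block changed no call of a member. Without Control array 4 and AβPP antisense array 4 together 1 passed there (Cfap54, 0.58). With single arrays left out, 0 to 2 passed there, 0 to 1 in AβPP antisense against Random antisense and 0 to 1 in untreated SAMP8 against Control (Bbs7, without Control array 1). Calls over all genes between AβPP antisense and Random antisense numbered 3, and 161 without AβPP antisense array 3. With 4 arrays per group, differences of the size of their SE could not be told from spread. Signal near background limits Foxj1 and Spag16, and also the low values of Tmem212 and Ankrd45.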
